A study of Mus musculus with 4 samples.

Results

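Lactate dehydrogenases, the carriers that move lactate across the cell membrane, their chaperone basigin and the mitochondrial pyruvate carrier were followed in the ventricles of single mouse embryos at E12.5 (embryonic stage by days after mating). The set holds 9 genes, taken by symbol from the 38293 genes of the deposited table: Ldha, Ldhb, Ldhd, Slc16a1, Slc16a3, Slc16a7, Bsg, Mpc1 and Mpc2. In the cKO group, 2 embryos carried floxed Hif1a alleles on both chromosomes together with a Cre recombinase driven from the Nkx2-5 locus, whose activity begins in precursors of heart muscle (Hif1alphaflox/flox/Nkx2.5Cre/+). The control group held 2 littermates that were floxed likewise but had no Cre (Hif1alphaflox/flox/Nkx2.5+/+). All 4 embryos were from litter 6, on a C57BL/6 background, and were matched by somite number; atria and valves had been removed, and polyadenylated RNA was sequenced. No group carried the Cre without floxed Hif1a, so effects of Hif1a loss cannot be told apart from those of the Cre or of its insertion at Nkx2-5.

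Glycolysis ends in pyruvate, which has several fates. Lactate dehydrogenase, a tetramer of A and B subunits encoded by Ldha and Ldhb, interconverts pyruvate and lactate and regenerates the NAD+ that glycolysis needs; A-rich tetramers prevail in tissues that make lactate, and B-rich tetramers in the adult heart. Proton-coupled monocarboxylate carriers of the SLC16 family pass lactate through the plasma membrane, with basigin escorting the carriers encoded by Slc16a1 and Slc16a3 to the surface. Pyruvate that is to be oxidised enters mitochondria through a heterodimer of the Mpc1 and Mpc2 proteins. Ldha and Slc16a3 are known targets of HIF-1, the transcription factor whose oxygen-regulated subunit Hif1a encodes; HIF-1 binds the core letters ACGTG or GCGTG.

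The DNA just upstream of the transcription start is shown for 4 members, the pair that fell in cKO ventricles and, beside each, the relative that did not pass the test. The 250 bases before the RefSeq start (build GRCm38.p6) are given 5′ to 3′ on the gene's strand, and capitals mark ACGTG or GCGTG on either strand. The windows are chr7:46845554-46845803 (plus strand) for Ldha, chr6:142507958-142508207 (minus) for Ldhb, chr11:120948817-120949066 (plus) for Slc16a3 and chr3:104638414-104638663 (plus) for Slc16a1.
Ldha: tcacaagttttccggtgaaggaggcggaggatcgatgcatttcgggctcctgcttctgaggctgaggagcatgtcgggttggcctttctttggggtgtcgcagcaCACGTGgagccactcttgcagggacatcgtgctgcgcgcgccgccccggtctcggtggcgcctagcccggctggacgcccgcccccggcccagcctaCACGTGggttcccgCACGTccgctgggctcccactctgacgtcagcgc
Ldhb: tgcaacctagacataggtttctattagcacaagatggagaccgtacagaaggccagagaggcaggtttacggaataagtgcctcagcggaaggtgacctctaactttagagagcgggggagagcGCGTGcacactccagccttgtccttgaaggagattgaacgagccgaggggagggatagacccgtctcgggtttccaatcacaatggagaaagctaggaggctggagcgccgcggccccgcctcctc
Slc16a3: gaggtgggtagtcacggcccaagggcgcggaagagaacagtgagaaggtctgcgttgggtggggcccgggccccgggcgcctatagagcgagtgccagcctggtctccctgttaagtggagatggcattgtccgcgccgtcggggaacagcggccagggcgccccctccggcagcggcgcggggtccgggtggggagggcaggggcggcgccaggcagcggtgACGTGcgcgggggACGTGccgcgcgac
Slc16a1: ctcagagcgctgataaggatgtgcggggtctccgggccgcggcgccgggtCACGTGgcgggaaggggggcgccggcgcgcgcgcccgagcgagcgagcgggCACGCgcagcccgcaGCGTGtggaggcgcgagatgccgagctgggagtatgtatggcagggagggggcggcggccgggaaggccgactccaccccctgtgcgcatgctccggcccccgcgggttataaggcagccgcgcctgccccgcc

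The window of Ldha held 3 separate places with ACGTG, of which 2 were the palindrome CACGTG, which reads as ACGTG on both strands. The third place, nearest the start, had it on the antisense strand only. Slc16a3 had 2 places with ACGTG, both on the sense strand and within 27 bases of the start. Slc16a1, whose transcript level did not pass the test, held 1 CACGTG and 2 places with GCGTG, and Ldhb held 1 GCGTG. Ldhd, too low to be tested, also held 1 CACGTG. Over all 32851 windows of this length in the table, 38.6% held at least 1 place with either core. At least 2 such places stood in 13.5%, and at least 3 in 4.65%. For ACGTG alone, 16.6% held it, 1.95% in at least 2 places and 0.256% in at least 3. The palindrome CACGTG stood in 6.02%, and in at least 2 places in 0.429%. With either core counted, Slc16a1 held 3 places, as Ldha did, and Slc16a3 held 2. Among the members, 7 of 9 matched the table, at 9 starts, and 8 of those 9 windows held either core. The second start of Ldha, at 46847082, had 1 GCGTG and no ACGTG. The nearest GENCODE transcript start lies 35 bases downstream of the RefSeq start used for Ldha. A match to these letters describes the sequence and does not show binding.

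**Figure D1:**
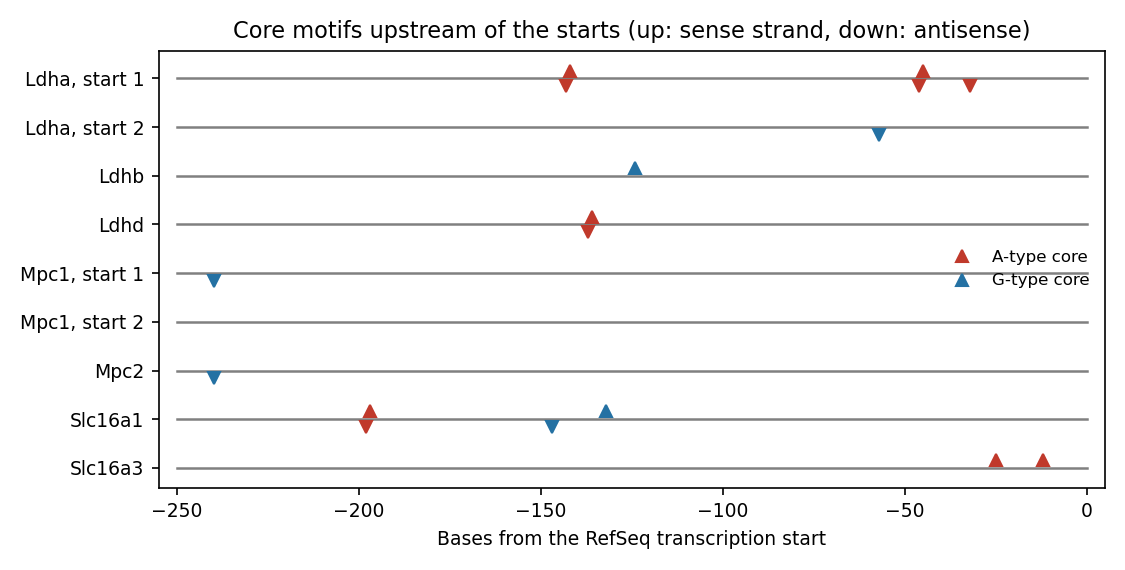
Positions of the A-type core (ACGTG, red) and the G-type core (GCGTG, blue) in the 250 bases before each RefSeq start of the 7 members that matched; the horizontal axis is the distance in bases from the start, and triangles pointing up and down are the sense and antisense strands. Ldha, at its first start, and Slc16a3 have 3 and 2 separate places with the A-type core, and Slc16a1 and Ldhd have 1 each. With either core counted, Slc16a1 has 3 places, as Ldha does, and Slc16a3 has 2.

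The 4 libraries held 9980051 and 19801300 expected counts in cKO replicates 2 and 3, against 8561687 and 8989184 in control replicates 2 and 3. Levels are given as CPM (counts scaled to a common library total) after TMM scaling, and differences as edgeR log2 fold changes, cKO over control, with standard errors (SE) and Benjamini-Hochberg adjusted p over 13711 genes; a gene was called at an adjusted p under 0.05. The labels call these separate embryos, and with 2 per group each p rests on 2 residual degrees of freedom beside the spread shared over all genes. Hif1a itself stood at 716 and 663 CPM in cKO, against 530 and 552 CPM in control. The log2 fold change of 0.35 ± 0.09 (SE) was not called by edgeR (adjusted p = 0.317) and was called by DESeq2 (adjusted p = 0.0190). Only part of the gene is deleted, and a count over all of it does not check this. Replicate 3 of cKO was the only library with Y-linked Ddx3y (101 CPM, against at most 0.110 in the others). Its X-linked Xist stood at 2.11 CPM, against 2097 CPM in cKO replicate 2 and 2026 and 1754 CPM in control. By these genes that embryo was male and the others female, so sex was mixed in cKO only. Without that library, which leaves 1 cKO embryo, Ldha had a log2 fold change of -1.65 and Slc16a3 one of -2.25. Heart muscle markers were abundant in each library, with a summed level of 10 genes at 36000 and 34500 CPM in cKO, against 37670 and 36140 CPM in control.

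Of the 9 genes, 2 fell in cKO ventricles and 0 rose. Those that fell were Ldha, the subunit that prevails where lactate is made, and Slc16a3, the carrier that glycolytic cells use to export it. Another 6 were not called, and Ldhd was too low to be tested. Over all genes tested, 0.511% were called, 0.365% lower and 0.146% higher. At an unadjusted p under 0.05, 3 members were lower and 0 higher, against 3.58% and 3.39% of all genes. DESeq2 called 3 members lower and 0 higher, against 0.373% and 0.186% of the genes it tested, and limma-voom called 2 lower and 0 higher, against 0.387% and 0.146%. The median log2 fold change of the 8 tested members was -0.025, and that of all genes was 0 to 2 decimals. The tested members shared neither size nor direction: the 2 that fell lay at -1.58 and -1.98, and the other 6 lay between -0.34 and 0.26.

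**Figure D2:**
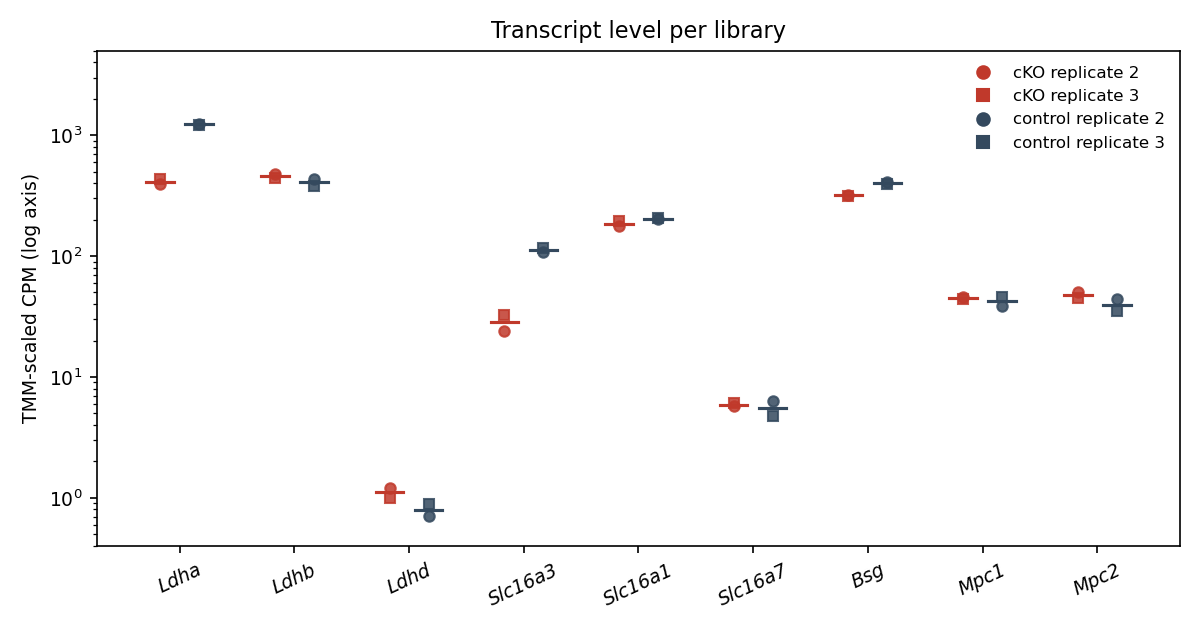
Transcript level of each gene in each library, as TMM-scaled CPM on a log axis; circles and squares are replicates 2 and 3, and bars are group means. For Ldha and Slc16a3 both cKO libraries (red) lie far below both control libraries (dark), while the groups lie closer together for the other genes.

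Ldha (ENSMUSG00000063229, GRCm38 chromosome 7, 46841475 to 46855627, plus strand) had 395 and 433 CPM in cKO, against 1248 and 1226 CPM in control. The groups were far apart and each pair of replicates was close. The mean was 414 CPM with an SD of 26.4 in cKO and 1237 CPM with an SD of 15.4 in control (n = 2 each), a 2.99-fold lower level (log2 fold change -1.58 ± 0.09, 95% interval -1.79 to -1.37, edgeR adjusted p = 0.000161). Set against the control mean, cKO replicate 2 lay at -1.65 and cKO replicate 3 at -1.52 on the log2 scale. Per kilobase of mean transcript length, Ldha ranked 194 and 169 among the 13711 genes in cKO, against 39 and 38 in control.

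Ldhb (ENSMUSG00000030246, chromosome 6, 142490249 to 142507957, minus strand), the subunit of the adult heart form, had 479 and 444 CPM in cKO, against 435 and 382 CPM in control. Both cKO libraries lay above both controls, by a margin smaller than the gap within the control pair. The log2 fold change was 0.18 ± 0.10 (95% interval -0.04 to 0.40) and was not called (edgeR adjusted p = 0.761). Of all genes tested, 18.8% had both cKO libraries below both controls and 19.4% had both above. Of the 8 tested members, 4 lay wholly below, 2 wholly above and 2 overlapped. Ldhd, which was too low to be tested, lay wholly above.

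Ldhd (ENSMUSG00000031958, chromosome 8, 111623785 to 111630374, minus strand) encodes the mitochondrial enzyme that oxidises D-lactate, the mirror image of the lactate of glycolysis. It had 11.6 and 19.8 expected counts in cKO, against 5.79 and 8.45 in control, or 1.21 and 1.005 CPM in cKO against 0.709 and 0.882 CPM in control. These counts fell under the filter on low counts; without the filter the log2 fold change was 0.46 (edgeR adjusted p = 0.882).

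The balance of A and B subunit transcripts within a library, which needs no scaling between libraries, did not overlap between the groups. The Ldha to Ldhb ratio of expected counts was 0.825 and 0.975 in cKO, against 2.87 and 3.21 in control. Each cKO library thus held fewer Ldha than Ldhb counts, and each control library held more. The mean log2 ratio was -0.16 ± 0.17 in cKO and 1.60 ± 0.12 in control (SD, n = 2 each), a difference of -1.76 ± 0.14 (SE), or 3.39-fold lower. In an exact two-sided permutation test over the 4 libraries p was 0.333, the smallest that 2 against 2 allows, so the test cannot pass. Per length, the ratio was 0.770 and 0.910 in cKO, against 2.68 and 2.998 in control, with mean transcript lengths, and 0.436 and 0.515 in cKO, against 1.52 and 1.70 in control, with the union of exons. The reversal of the order of Ldha and Ldhb therefore held for both definitions of length. Summed per kilobase of mean transcript length, Ldha and Ldhb stood at 975 and 975 CPM per kb in cKO, against 1839 and 1755 CPM per kb in control; the cKO mean was 54.3% of the control mean, and 64.1% with the union of exons.

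Slc16a3 (ENSMUSG00000025161, chromosome 11, 120948480 to 120960868, plus strand), which encodes the lactate exporter MCT4, had 23.8 and 32.7 CPM in cKO, against 109 and 117 CPM in control. No library of one group came near the other. The mean was 28.2 CPM with an SD of 6.28 in cKO and 113 CPM with an SD of 5.65 in control (n = 2 each), a 3.95-fold lower level (log2 fold change -1.98 ± 0.14, 95% interval -2.31 to -1.66, edgeR adjusted p = 0.000635). The log2 difference from the control mean was larger in cKO replicate 2 (-2.25) than in cKO replicate 3 (-1.79). Ordered by log2 fold change among the 50 genes called lower, Slc16a3 stood at place 11 and Ldha at place 15.

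Slc16a1 (ENSMUSG00000032902, chromosome 3, 104638668 to 104658462, plus strand), which encodes the widely expressed carrier MCT1, had 177 and 194 CPM in cKO, against 202 and 206 CPM in control. The log2 change of -0.14 ± 0.08 (95% interval -0.33 to 0.05) was not called (edgeR adjusted p = 0.772). The interval does not reach the value of Slc16a3. The Slc16a3 to Slc16a1 ratio of expected counts was 0.134 and 0.169 in cKO, against 0.540 and 0.569 in control, a difference of -1.88 ± 0.17 on the log2 scale (SE) and 3.69-fold lower (exact two-sided permutation p = 0.333, again the smallest possible). Which carrier was the more abundant in control depended on the length used: the per-length ratio there was 1.55 and 1.63 with mean transcript lengths and 0.449 and 0.473 with the union of exons. In cKO it was below 1 with both (0.384 and 0.482, and 0.112 and 0.140). Slc16a3 has 8 transcripts in the deposited table that differ much in length, and Slc16a1 has 1.

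Slc16a7 (ENSMUSG00000020102, chromosome 10, 125219270 to 125389465, minus strand), which encodes the high-affinity carrier MCT2, was a low transcript with 5.77 and 6.03 CPM in cKO, against 6.27 and 4.74 CPM in control. The groups overlapped (log2 fold change 0.11 ± 0.25, edgeR adjusted p = 0.951), and the 95% interval of -0.46 to 0.67 is the widest among the tested members.

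Bsg (ENSMUSG00000023175, chromosome 10, 79704491 to 79711969, plus strand), which encodes basigin, had 321 and 317 CPM in cKO, against 413 and 394 CPM in control. Both cKO libraries were below both controls, with a gap larger than that within either pair. The log2 fold change of -0.34 ± 0.08 (95% interval -0.52 to -0.15) had an unadjusted p of 0.00281 and was not called by edgeR after adjustment (adjusted p = 0.248); DESeq2 called it (adjusted p = 0.0350). Embryonic red cells also carry basigin and MCT1. All 11 erythroid markers measured had negative log2 fold changes, against 50.1% of all genes tested, and none was called. Their summed level was 2663 and 6448 CPM in cKO, against 5069 and 5831 CPM in control. It was thus below both controls in cKO replicate 2 and above both in cKO replicate 3. The part of red cells in the value of Bsg was not tested.

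Mpc1 (ENSMUSG00000023861, chromosome 17, 8282904 to 8297661, plus strand) and Mpc2 (ENSMUSG00000026568, chromosome 1, 165460637 to 165481214, plus strand) encode the subunits of the pyruvate carrier. Mpc1 had 45.6 and 44.6 CPM in cKO, against 38.5 and 46.2 CPM in control (log2 fold change 0.09 ± 0.11, 95% interval -0.16 to 0.33, edgeR adjusted p = 0.896). Mpc2 had 50.5 and 44.7 CPM in cKO, against 44.3 and 35.1 CPM in control (0.26 ± 0.13, 95% interval -0.04 to 0.55, adjusted p = 0.735). Neither was called, and the groups overlapped for Mpc1 and came close together for Mpc2. The Mpc1 to Mpc2 ratio of expected counts was 0.904 and 0.998 in cKO, against 0.869 and 1.32 in control, so the groups overlapped too (log2 difference -0.17 ± 0.31 SE, exact two-sided permutation p = 1). Mpc1 lies 18.5 Mb from Nkx2-5 on the same chromosome.

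**Figure D3:**
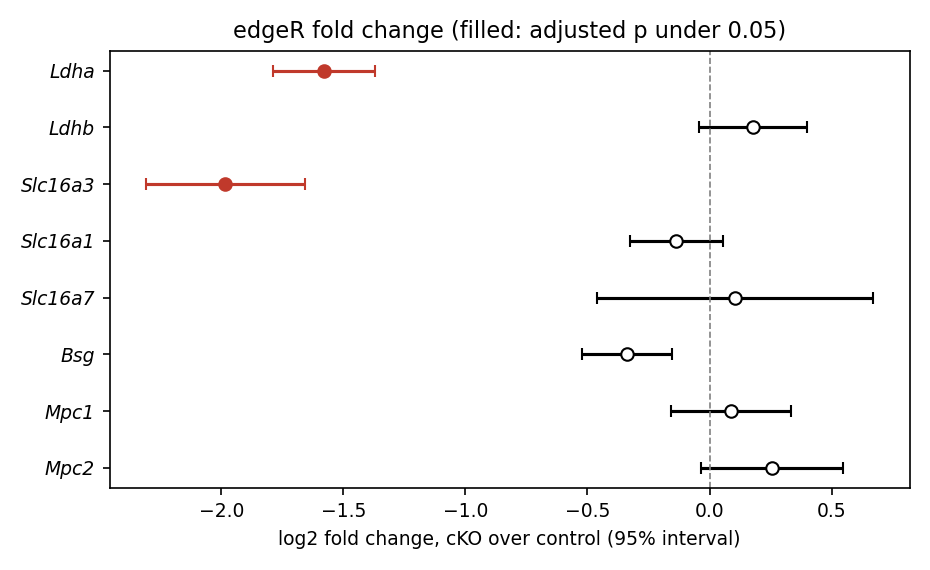
edgeR log2 fold change, cKO over control, of the 8 tested genes, with 95% intervals; filled red points passed an adjusted p of 0.05. Ldha (-1.58) and Slc16a3 (-1.98) stand apart, and among the open points the interval of Bsg alone leaves out 0.

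**Figure D4:**
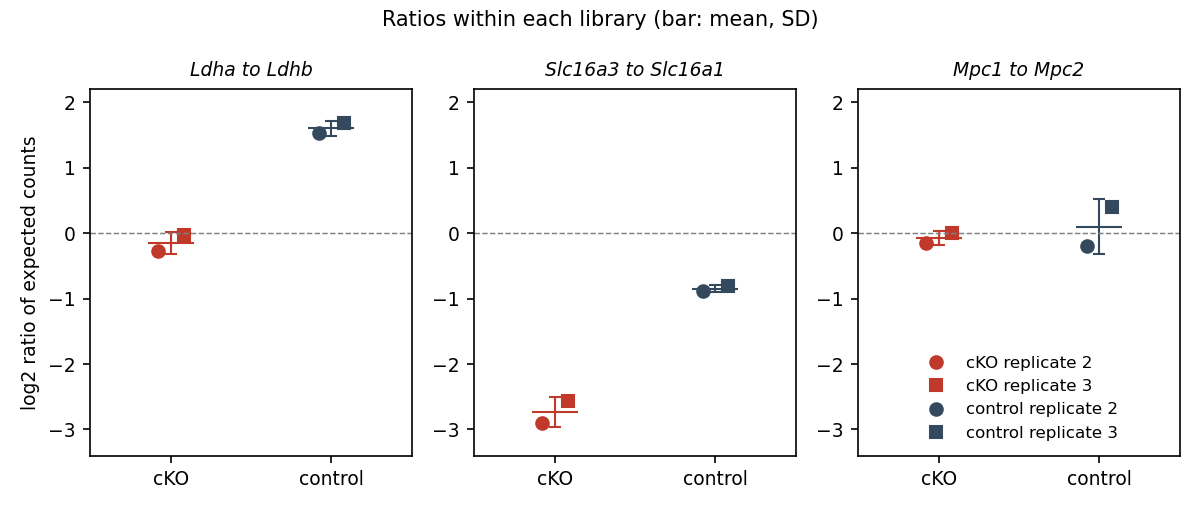
Log2 ratio of expected counts within each library for 3 pairs of genes, cKO left and control right, with the mean and SD of each group. The groups are separate for Ldha to Ldhb (means -0.16 and 1.60) and Slc16a3 to Slc16a1 (-2.73 and -0.85), and overlap for Mpc1 to Mpc2.

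Ordered by level per kilobase of mean transcript length, the genes ran Ldhb (531 ± 28.6 CPM per kb), Ldha (444 ± 28.4), Bsg (302 ± 2.95), Mpc1 (66.5 ± 1.11), Slc16a1 (41.9 ± 2.66), Mpc2 (31.4 ± 2.72), Slc16a3 (18.3 ± 4.06), Slc16a7 (2.53 ± 0.0795) and Ldhd (0.340 ± 0.0454) in cKO (SD, n = 2). In control the order was Ldha (1327 ± 16.5 CPM per kb), Ldhb (469 ± 43.2), Bsg (381 ± 12.3), Slc16a3 (73.2 ± 3.66), Mpc1 (62.5 ± 7.995), Slc16a1 (46.1 ± 0.595), Mpc2 (26.2 ± 4.32), Slc16a7 (2.36 ± 0.463) and Ldhd (0.244 ± 0.0375). Slc16a3 stood at place 7 in cKO, against place 4 in control. No 2 neighbours in either order overlapped between libraries. With the union of exons as length, 1 pair did, Slc16a3 and Mpc1 in control. By that length Slc16a3 stood at place 7 in cKO, against place 5 in control, Slc16a1 stood above Mpc1 in both groups, and Bsg stood above Ldha in cKO.

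Several processed pseudogenes resemble these genes, and reads that fit more than 1 gene were divided by the authors' counting. At 95% identity over at least 300 bases of transcript on the same strand, Ldha had 4 such copies, of which 2 (Gm11814 and Ldha-ps2) were in the table, both at 0 in each library. The Ldhb copy Gm5514 was at 0 in each library too, and Mpc1-ps held 7.17 expected counts in control replicate 2 and 0 elsewhere. At 90% identity, 10 copies of Ldha together held at most 3.45 expected counts in a library, against at least 3908 for Ldha itself. Summing members with their copies left the log2 fold change of Ldha at -1.58 and gave 0.07 for Mpc1.

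The genes whose profile over the 4 libraries lay closest to that of Ldha, by Euclidean distance of log2 CPM centred on the control mean among 7739 genes, were Pfkl (distance 0.162), which encodes liver phosphofructokinase, Ak4 (0.224), a mitochondrial adenylate kinase, and Igfbp2 (0.252), which binds insulin-like growth factors. Closest to Slc16a3 were Bnip3 (0.377), a mitochondrial BCL2-family protein, Pdk1 (0.408), a kinase that inhibits pyruvate dehydrogenase, and Ak4 (0.446). With 4 libraries in 2 groups, this distance mainly finds genes with a fall of like size, and it is given as a description.

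Over all genes tested, edgeR called 0.365% lower and 0.146% higher. In the steps before lactate, 9 of 15 genes from glucose phosphate isomerase to pyruvate kinase fell, 0 rose and 6 were not called. The median log2 fold change of the 15 was -0.78. The 4 with the smallest p were Pfkl (79.3 ± 3.17 CPM in cKO and 245 ± 0.808 CPM in control), Pgk1 (log2 fold change -1.16 ± 0.09), Tpi1 (-0.94 ± 0.08) and Aldoa (-0.90 ± 0.09), encoding phosphofructokinase, phosphoglycerate kinase, triosephosphate isomerase and aldolase, with edgeR adjusted p of 6.39e-05, 0.00128, 0.00204 and 0.00309. Of 5 genes of glucose uptake and phosphorylation 3 fell and 0 rose: the glucose transporters Slc2a3 (-1.44 ± 0.18) and Slc2a1 (-1.11 ± 0.18), and hexokinase Hk2 (-0.93 ± 0.12), with edgeR adjusted p of 0.0168, 0.0468 and 0.0193. These 3 calls were lost without either control replicate, with adjusted p between 0.0710 and 0.169, and Slc2a1 was not called by DESeq2 (adjusted p = 0.0701), without the filter on low counts (0.0731) or with a mean of at least 5 CPM (0.0654). Among genes at this end of the pathway, Slc16a3 had a lower fold change than each of the 9 glycolysis genes that fell, and Ldha than each but Pfkl.

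Where pyruvate is oxidised instead, 1 of 12 genes of pyruvate dehydrogenase, its kinases and phosphatases and pyruvate carboxylase fell and 0 rose. Over all genes tested the shares were 0.365% and 0.146%. The median of the list was 0.04. The gene that fell was Pdk1, at 64.6 and 59.7 CPM in cKO, against 253 and 260 CPM in control (log2 fold change -2.05 ± 0.09, edgeR adjusted p = 2.65e-05). None of 12 genes of the NADH shuttles and alanine transaminases was called by edgeR or DESeq2, with a median of 0.13. At an unadjusted edgeR p under 0.05, 1 was higher and 0 lower, against 3.39% and 3.58% of all genes. Both cKO libraries lay above both controls for 7 of the 12, against 19.4% of all genes, and below both for 2, against 18.8%. Gpt2, the mitochondrial alanine transaminase, which joins pyruvate to the amino acid pool, had the smallest p in that list (0.76 ± 0.20, edgeR adjusted p = 0.381), with 15.6 and 20.5 CPM in cKO, against 9.102 and 12.46 CPM in control.

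No listed relative of the members was called by edgeR, against 0.511% of all genes tested. At an unadjusted edgeR p under 0.05, 3.58% of all genes were lower and 3.39% higher. Of 15 other SLC16 genes, sodium-coupled carriers, embigin and the lactate receptor, 8 could be tested and none was called by edgeR or DESeq2 (0 at an unadjusted p under 0.05; median -0.04); the 7 not tested stood at 0.809 CPM or less in each library. Emb, whose product embigin is the partner of MCT2, had the smallest p (-0.29 ± 0.17, edgeR adjusted p = 0.768). Of the glyoxalase genes that lead to D-lactate, 3 were tested and none was called by edgeR, with 1 higher at an unadjusted p under 0.05. This was Glo1, the first enzyme of the route, at 159 and 163 CPM in cKO, against 122 and 111 CPM in control (0.47 ± 0.08, edgeR adjusted p = 0.0774); DESeq2 called it higher (adjusted p = 0.0110). Glo1 lies on chromosome 17 at 30584936 to 30626871, and Nkx2-5, where the Cre sits, at 26838664 to 26845009. Hagh (from 24840143, log2 fold change 0.09) and Haghl (from 25779843, 0.09) lie on the same chromosome and were not called. The part of linkage to the Cre locus in the value of Glo1 was not tested. Ldhc, the testis subunit, was at 0 in each library. None of 10 genes that handle acid and bicarbonate was called by edgeR or DESeq2 (1 lower at an unadjusted p under 0.05; median 0.05), with the smallest p for the bicarbonate carrier Slc4a4 (-0.35 ± 0.13, edgeR adjusted p = 0.666).

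**Figure D5:**
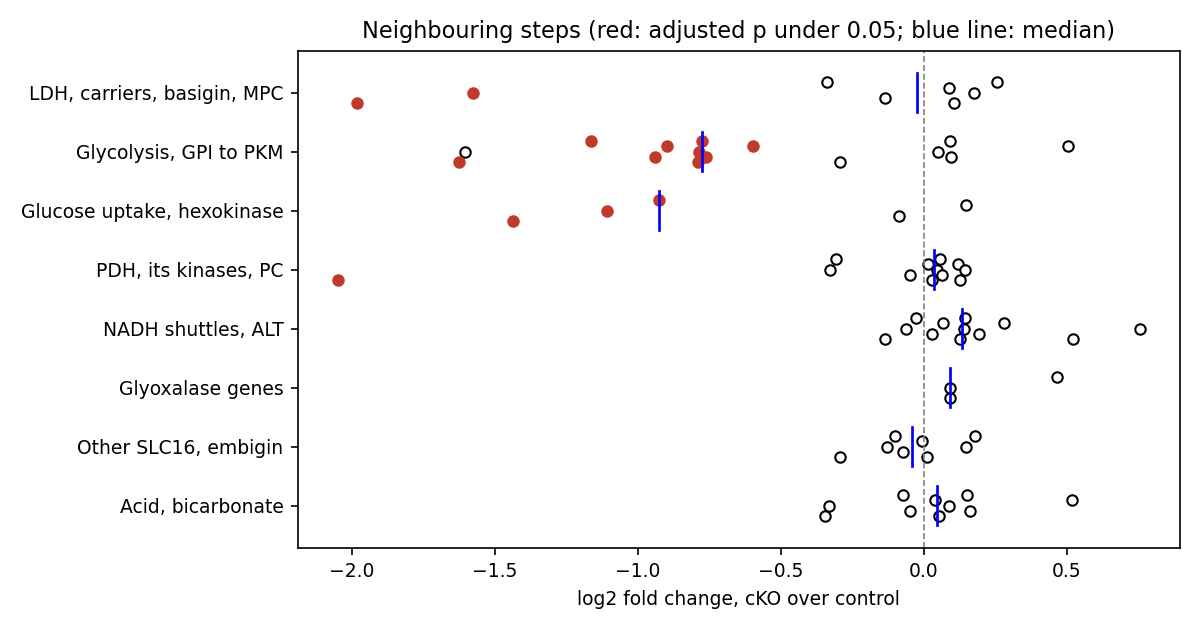
edgeR log2 fold change, cKO over control, of each tested gene in the 9-gene set (top row) and in 7 lists of neighbouring steps; red points passed an adjusted p of 0.05 and blue lines are medians. The red points lie in the top row, glycolysis (9 of 15), glucose uptake (3 of 5) and the pyruvate dehydrogenase list (Pdk1 alone), all left of 0.

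Summed levels of markers listed for other cells differed between the groups in part. Fewer cells of a type and less RNA per cell cannot be told apart in these bulk samples. The summed level of 10 endothelial and endocardial markers was 1451 and 1318 CPM in cKO, against 1565 and 1612 CPM in control. All 10 log2 fold changes were negative and none was called, and 50.1% of all genes tested were negative. At an unadjusted edgeR p under 0.05, Pecam1, Cdh5, Flt1, Kdr, Npr3 and Esam were lower, against 3.58% of all genes tested. Tek, Tie1, Emcn and Egfl7 were not. Markers of the same cell type are not independent of each other. The summed level of 7 smooth muscle and pericyte markers was 897 and 1025 CPM in cKO, against 1333 and 1350 CPM in control. Of these, Myh11, which defines mature smooth muscle, stayed under 1 CPM in each library. Acta2 made up most of the sum, at 497 and 599 CPM in cKO, against 833 and 862 CPM in control, and was not called. Tagln (log2 fold change -0.42, edgeR adjusted p = 0.153), Cnn1 (-0.22), Cspg4 (-0.15), Pdgfrb (-0.07) and Rgs5 (0.30) were not called either. Of 8 epicardial markers 1 fell (Krt19, edgeR adjusted p = 0.0347), where 0.365% of all genes tested were called lower. Log2 fold changes were negative for 7 of the 8, with Wt1 at -0.39 and Krt8 at -0.85, both not called. Tbx18 was positive (0.09). The epicardial sum overlapped between groups (342 and 264 CPM in cKO, against 318 and 369 CPM in control). Sums also overlapped for 8 cushion, 8 immune and 8 atrial markers, of which Sln and Shox2 stayed under 1 CPM. The atrial sum was 6385 and 3823 CPM in cKO, against 4443 and 3989 CPM in control. Nppa in it had 4176 and 1847 CPM in cKO, against 2343 and 2184 CPM in control. Of the 8 cushion markers, 4 had negative log2 fold changes. Among them Col2a1 had 5.46 and 36.1 CPM in cKO, against 78.85 and 64.95 CPM in control, and was not called. Of 8 liver and skeletal muscle markers 5 stayed under 1 CPM in each library, and the sum, mostly of the actin gene Acta1, was 65.3 and 90.1 CPM in cKO, against 122 and 185 CPM in control. The part of these cells in the values of Ldha, Slc16a3 and Bsg was not tested. Neither was which cells held the Acta2 and Acta1 transcripts.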

How the data were processed

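The table deposited by the authors holds an expected count for each gene and library, an estimate that splits reads between genes they fit equally well, so that 13.9% to 16.9% of entries per library carried decimals. The submitters' processing notes name GRCm38 as the build, and the tools RSEM 1.2.3, cutadapt 1.3 and CASAVA 1.8.2; the annotation is not stated. Per the labels' protocols, libraries came from 500 ng of total RNA with a kit that does not mark strand, read as single reads of 75 bases, so antisense partners cannot be told apart.

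Symbols, positions and lengths came from GENCODE release M21 (36429 of 38293 identifiers matched). Counts were rounded, filtered by edgeR 4.0.16 (minimum count 10, minimum total 15), scaled by TMM and tested with glmQLFit and glmQLFTest in R 4.3.3. Intervals use the test's prior and residual degrees of freedom, and SE is the log2 fold change over the square root of F. Ratios were tested over libraries by exact permutation (scipy 1.17.1). Copies were found with BLAST 2.17.0. Alternatives were DESeq2 1.42.0 (size factors, test), limma 3.58.1 (voom), upper-quartile scaling, other filters, a replicate block, summed copies and each library left out. The edgeR steps were tested on simulated data first. There they called 48% of 1.5-fold changes, 78% of 2-fold and 98% of 4-fold ones, with 7 false calls among 169. A gene that was not called may thus still differ by a small fold.

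The members, lists and naming rule were chosen with earlier results of these data known. The rule named all members, Hif1a and Nkx2-5, up to 4 called genes per list by p (or the 1 with the smallest p), and 3 nearest profiles each for Ldha and Slc16a3 among genes of at least 20 CPM. Nkx2-5, which carries the Cre, had a log2 fold change of -0.49 ± 0.10 (edgeR adjusted p = 0.153). Xist, Ddx3y, Krt19, Ldhc, Hagh, Haghl, Aldoc and the marker genes named were chosen after their values were seen. Upstream sequences came from RefSeq (GRCm38.p6); Slc16a7 and Bsg had no entry.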

Additional observations from a re-analysis of the deposited data

How the results depend on the processing

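Ldha and Slc16a3 were called lower in all 12 alternatives of the fit, with log2 fold changes from -1.65 to -1.51 and from -2.25 to -1.79 and adjusted p up to 0.00343 and 0.0105. Members called lower numbered 2 in each alternative but DESeq2's test, which gave 3 by adding Bsg, and members called higher numbered 0 in each. With the replicate number as a block (replicate block), Ldha had -1.58 and Slc16a3 -2.004, 2 members were called and 75 genes in all; nothing in the labels links equal numbers, and deviations of same-numbered libraries correlated at 0.106. Leaving out 1 library leaves a group of 1, taken to vary as the pair does. It moved the Ldha to Ldhb difference between -1.88 and -1.64, that of Slc16a3 to Slc16a1 between -2.05 and -1.72, and that of Mpc1 to Mpc2 between -0.47 and 0.13, with a turn in sign without control replicate 3 (0.13). Slc16a7 ranged from -0.084 to 0.32 and Mpc1 from -0.036 to 0.23 in the same way, Slc16a7 turning negative without control replicate 3 and Mpc1 without control replicate 2. Mpc2 ranged from 0.097 (without control replicate 3) to 0.44 (without control replicate 2), Ldhb from 0.086 to 0.27 likewise, and Slc16a1 from -0.20 (without cKO replicate 3) to -0.073 (without cKO replicate 2), none of them called. Genes called over the whole table numbered 70, with 39 to 141 in the leave-outs, lower 24 to 69 and higher 15 to 72; 141 came without cKO replicate 2 and 39 without control replicate 3. With a mean of at least 5 CPM, which tests fewer genes, 10 were higher. DESeq2 called 1 glyoxalase gene higher, Glo1; the cause was not tested. Ldhd, with at most 20 counts in a library, is limited by depth.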
